A study of Mus musculus with 12 samples.

Results

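Very broad H3K4me3 domains are the extreme of the width distribution of trimethylated histone H3 lysine 4 (H3K4me3), a mark of active promoters. They were defined here as autosomal peaks at least 5000 bases wide, whatever gene the deposited table assigns to them, which gave 491 of 15848 peaks (3.10%) on the mouse genome build mm10. Enzymes of the SET1 and MLL families place the methyl groups on H3K4, demethylases of the KDM5 family remove trimethylation, and most promoters carry the mark as a narrow block around the transcription start. Wide blocks that run into the gene body are known from genes that define a cell type, and in cardiomyocytes (CMs), the contracting cells of the heart, they include genes for heart transcription factors and contractile proteins.

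The study asked how H3K4me3 differs in CMs whose mitochondria lack the main entry route for long-chain fatty acids. Nuclei were sorted by FACS from ventricles of adult mice through the CM marker PCM1, and H3K4me3 was measured by ChIP–seq. The Cpt1bcKO group carried αMHC-Cre with Cpt1b fl/fl, in which exons 10–11 of Cpt1b are floxed, whereas the CtrlCre group carried αMHC-Cre with Cpt1b+/+. Cpt1b encodes the muscle form of carnitine palmitoyltransferase, which admits long-chain acyl groups to mitochondria. Each genotype had 3 H3K4me3 libraries. All libraries thus come from mice with Cre, which the αMHC promoter restricts largely to CMs, on a C57BL/6 background. Input libraries were listed for both genotypes and were not analysed here. The study speaks of biological replicates and counts mice as the unit where it joins these data with expression, which makes each library a separate mouse as far as it states, and p-values measure the spread between these libraries.

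Counts in peaks ranged from 763133 in CtrlCre replicate 2 to 2766416 in Cpt1bcKO replicate 2. Counting error alone came to between 4.15% and 8.20% of the median very broad domain, depending on the library. Of 8 CM marker genes, all 8 had a very broad domain at their start. The deposited table assigned 7 of these domains to the gene, and not that of Mb. Of 25 markers of fibroblasts, endothelial cells, mural cells and immune cells, 6 had a peak assigned to them. None of the 25 had a very broad domain, assigned or over a start. Unassigned narrower peaks at these markers were not counted. Summed normalized counts of the 6 assigned nonmyocyte peaks were between 301 and 410 in CtrlCre and between 152 and 228 in Cpt1bcKO libraries. None of the 6 immune markers had an assigned peak. The part of these cells in the results below was not tested, and fewer cells of a type and less signal per cell cannot be told apart. Signal at 4 Y-chromosome peaks was 0 except in replicate 3 of both genotypes, so that replicate holds other animals than replicates 1 and 2.

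The domains were between 5007 and 24891 bases wide, with a median of 6360. They held 12.8% of the bases in autosomal peaks. The narrowest members were those of Ssbp4 and Gm14327, with 5007 bases each, and Slk, with 5012 bases. The widest autosomal peaks that missed the rule belonged to Ucp3 (4996 bases) and to Rnase4 and Dnaja2 (4988 bases each). Ucp3 encodes a mitochondrial uncoupling protein of muscle, and its peak held 221 ± 4.93 normalized counts in CtrlCre and 335 ± 40.8 in Cpt1bcKO CMs (SD, n = 3), while the Slk domain just inside held 343 ± 31.7 and 375 ± 37.5.

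The members were chosen by their width in the measured signal of both genotypes, so widths and levels are given as a description. The deposited table named a gene for 405 domains and none for 86. In the GENCODE vM21 annotation, 455 domains (92.7%) contained a transcript start of a protein-coding gene, 81 contained starts of at least 2 such genes, and 139 contained a start of a noncoding gene. A median of 65.8% of the bases of a domain were intronic and 18.5% exonic. For 381 domains the start of the assigned gene lay inside, and these reached a median of 4830 bases downstream and 1355 bases upstream of it. The longer arm ran downstream in 308 of these 381 domains. The mark at very broad domains was thus wide mainly along the transcribed side.

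In order of width, the 10 widest lay at Myh6, Hand2, Gata4, 2010111I01Rik, Nkx2-5, Gata6, Ttn, Nfib, Meis2 and Popdc2. The Myh6 domain (chr14:54955478-54980369) measured 24891 bases and ran over Myh6 and Myh7, which encode the α and β cardiac myosin heavy chains, and over the microRNA gene Mir208b. Its normalized counts were 2605, 2399 and 2930 in CtrlCre replicates 1 to 3 and 2142, 2446 and 1544 in Cpt1bcKO replicates 1 to 3. The Cpt1bcKO libraries reached below the controls but overlapped them, and the log2 difference of -0.39 (SE 0.16) had an adjusted p of 0.280 in limma. It was -0.20 without Cpt1bcKO replicate 3.

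Hand2, Gata4, Nkx2-5 and Gata6 encode transcription factors of the early heart, and their domains measured 23874, 23183, 18318 and 17953 bases. Normalized counts at Hand2 (chr8:57311086-57334960) were 1304, 1207 and 1465 in CtrlCre and 1205, 1236 and 1085 in Cpt1bcKO libraries. At Gata4 (chr14:63228897-63252080) they were 768, 818 and 833 against 768, 911 and 687. The log2 differences of the 10 widest domains ran from -0.39 to 0.06, and none passed an adjusted p of 0.05 in limma.

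Per kilobase, the median domain held 53.2 normalized counts in CtrlCre CMs, below the 63.6 of autosomal peaks above the 75th percentile of width (2222 bases) but under 5000 bases, called next-broad peaks here. The highest levels per kilobase were at the noncoding RNA gene Malat1 (124), at Tnni3 (112), which encodes cardiac troponin I, at Pcdh7 (111), a protocadherin gene, at the promoter of Fhl2 (110) and at Myh6 (106). Of these, only the Fhl2 domain passed the test between the genotypes. The lowest level, 8.41 per kilobase, belonged to a domain over the 3′ part of Cpt1b that the deposited table assigns to Syce3.

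The base composition of the domains differed from that of narrower peaks. The median GC content was 50.6%, against 54.4% in next-broad peaks and 56.1% in peaks between the 25th (1030 bases) and 75th percentiles. The ratio of observed to expected CpG dinucleotides had a median of 0.43, against 0.63 and 0.68. This ratio covers the whole domain, so flanks and gene body enter it with the promoter. RefSeq promoter windows, from 250 bases before to 50 bases after a start, were matched to peaks that contain them, which gave 552 windows in 345 very broad domains. A window held a median of 21 CpGs in very broad domains and 26 in next-broad peaks. Windows with fewer than 10 CpGs made up 20.3% in very broad domains, 8.47% in next-broad peaks and 56.5% of all 32851 RefSeq windows. The letters TATAAA, searched on both strands, occurred in 9.60% of windows in very broad domains, 5.51% of those in next-broad peaks and 13.6% of all windows.

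The range of promoter types under a very broad domain is shown by the 150 bases before the start of 6 genes (RefSeq, GRCm38.p6, 5′ to 3′ on the strand of the gene, CpGs in capitals). They give a CpG-rich and a CpG-poor promoter from domains that did not pass the test (Tbx20, Tnni3), that were higher in Cpt1bcKO CMs (Bri3, Cd36) and that were lower (Irs1, Hrc, both no longer called without CtrlCre replicate 1).
Tbx20: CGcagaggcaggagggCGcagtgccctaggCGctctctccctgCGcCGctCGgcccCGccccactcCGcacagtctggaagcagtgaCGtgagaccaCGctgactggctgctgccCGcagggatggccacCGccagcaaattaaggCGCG
Tnni3: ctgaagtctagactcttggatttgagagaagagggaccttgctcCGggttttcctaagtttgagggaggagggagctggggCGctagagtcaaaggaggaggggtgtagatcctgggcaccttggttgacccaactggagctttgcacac
Bri3: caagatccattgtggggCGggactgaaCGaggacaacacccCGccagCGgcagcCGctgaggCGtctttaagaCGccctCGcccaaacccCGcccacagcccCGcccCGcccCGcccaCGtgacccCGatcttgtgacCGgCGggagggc
Cd36: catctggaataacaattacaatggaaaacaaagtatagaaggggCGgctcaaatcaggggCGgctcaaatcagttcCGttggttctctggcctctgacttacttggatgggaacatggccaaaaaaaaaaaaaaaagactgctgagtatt
Irs1: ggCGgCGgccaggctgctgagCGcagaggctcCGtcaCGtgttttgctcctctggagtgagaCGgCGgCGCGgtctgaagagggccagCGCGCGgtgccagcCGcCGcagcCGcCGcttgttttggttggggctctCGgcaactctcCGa
Hrc: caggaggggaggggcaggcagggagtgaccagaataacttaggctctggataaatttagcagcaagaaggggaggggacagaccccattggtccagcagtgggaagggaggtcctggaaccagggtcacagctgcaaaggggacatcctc

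These 6 windows lie at chr9:24774304-24774453 on the minus strand (Tbx20), chr7:4522529-4522678 on the minus strand (Tnni3), chr5:144255075-144255224 on the plus strand (Bri3), chr5:17835897-17836046 on the minus strand (Cd36), chr1:82291440-82291589 on the minus strand (Irs1) and chr7:45335119-45335268 on the plus strand (Hrc). They contain 14, 2, 16, 3, 18 and 0 CpGs, in that order, and none overlaps an exon annotated in vM21. Domains of 5000 bases and more thus lay over starts with many CpGs and over starts with almost none. Over all windows, the median number of CpGs was 12 in the 17 windows of domains higher in Cpt1bcKO CMs, 7 in the 27 windows of lower domains and 21 in the 508 windows of the others.

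The total signal of the very broad domains did not separate the genotypes. They held 10.8%, 10.5% and 11.4% of the autosomal signal in CtrlCre replicates 1 to 3 and 10.5%, 11.3% and 9.97% in Cpt1bcKO replicates 1 to 3. CtrlCre replicate 3 and Cpt1bcKO replicate 2 were the highest, Cpt1bcKO replicate 3 was the lowest, and the groups overlapped. The log2 ratio of their summed signal to that of all other autosomal peaks was -3.03 ± 0.06 in CtrlCre and -3.08 ± 0.10 in Cpt1bcKO CMs (SD, n = 3, two-sided exact permutation p = 0.4, where 3 libraries against 3 cannot give less than 0.1). Against next-broad peaks the ratio was -1.66 ± 0.06 and -1.70 ± 0.09 (SD, n = 3, exact permutation p = 0.4). The difference of -0.05 on the log2 scale shrank to -0.00027 against all other peaks and -0.0056 against next-broad peaks without Cpt1bcKO replicate 3, and was -0.015 and -0.016 without CtrlCre replicate 3. Without Cpt1bcKO replicate 2 it was -0.10 and -0.09, and without CtrlCre replicate 2 -0.08 and -0.07.

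**Figure D1:**
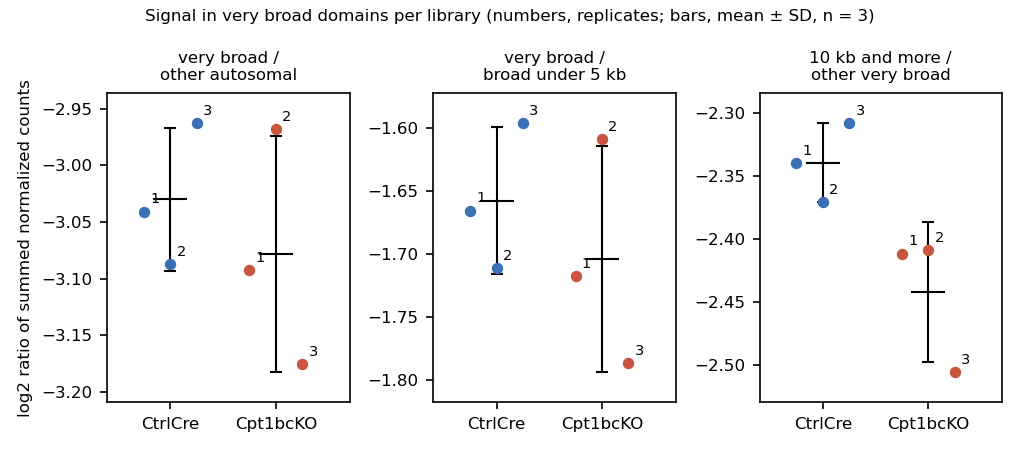
Log2 ratio of summed normalized counts per library, with very broad domains over all other autosomal peaks on the left, over next-broad peaks in the middle, and domains of 10 kb and more over the other very broad domains on the right. Points are libraries numbered by replicate, and bars are the mean ± SD of 3 libraries. The genotypes overlap in the left and middle panels and are separate in the right panel.

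Domains of at least 10 kb, 44 in number, were also compared with the rest of the very broad domains. This width was chosen after the values were seen. The log2 ratio of their summed signal to that of the other very broad domains was -2.34, -2.37 and -2.31 in CtrlCre replicates 1 to 3 and -2.41, -2.41 and -2.51 in Cpt1bcKO replicates 1 to 3. All Cpt1bcKO libraries lay below all CtrlCre libraries, with a difference of -0.10 and an exact permutation p of 0.1, the smallest that 3 against 3 allows. Of the 44 domains, 32 (72.7%) had a negative log2 difference, against 59.3% of all very broad domains. In limma, 6 (13.6%) passed as lower and 0 as higher. The shares over all very broad domains were 7.94% lower and 4.07% higher, and over all tested peaks 1.82% and 1.11%. At an unadjusted p under 0.05, 10 of the 44 were lower and 4 higher, and limma-voom on the recovered counts called 6 lower and 0 higher. Quantile normalization called 3 of them higher and 6 lower, and the GC correction described below 2 higher and 5 lower. Without CtrlCre replicate 1 there were 3 lower, and without Cpt1bcKO replicate 3 there were 4. Their median GC content was 49.0%, below the 51.3% of domains from 5000 to under 6000 bases.

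The lowest mean normalized count of a domain was 55, above the minimum of 10, so all 491 entered the test across 15039 peaks. At an adjusted p under 0.05 in limma, 20 domains (4.07%) were higher and 39 (7.94%) lower in Cpt1bcKO CMs, where 1.11% and 1.82% of all tested peaks were higher and lower. Together 59 of the 491 domains were called, where the share over all tested peaks was 2.93%. The genotypes were fully separate at 12.4% of domains in the higher and 16.5% in the lower direction, against 7.8% and 8.46% of all tested peaks. The median log2 difference was -0.04 over the domains and 0.01 over all tested peaks. The other 432 domains did not pass, and 300 of all domains lay within 0.2 of 0 on the log2 scale.

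Leaving out Cpt1bcKO replicate 3 gave 18 higher and 18 lower domains, and leaving out CtrlCre replicate 1 gave 14 and 20. A correction of each library for the GC content of its peaks gave 31 higher and 27 lower domains, so that the lower group was no longer the larger. Across the 491 domains, the deviation of a library from the mean of all 6 had a Spearman correlation with GC content of 0.34 in Cpt1bcKO replicate 3, -0.28 in Cpt1bcKO replicate 2, -0.22 in CtrlCre replicate 3, and between -0.10 and 0.12 in the other 3 libraries. These correlations run over domains of the same libraries and describe them only. GC content moved with the library values, and its part in the calls beyond the corrected counts was not tested.

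**Figure D2:**
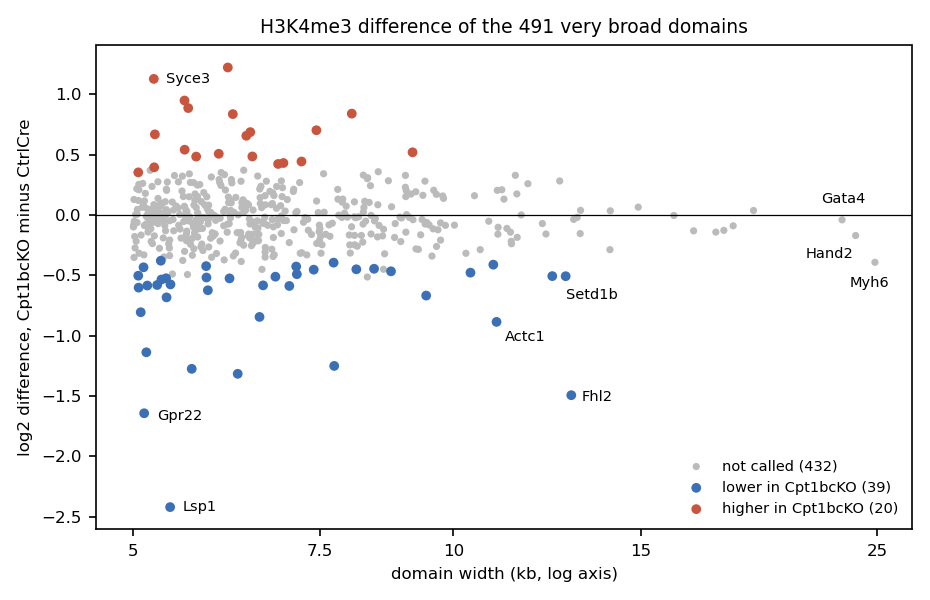
Log2 difference of each of the 491 domains, Cpt1bcKO minus CtrlCre, against its width in kilobases on a log axis. Red points are the 20 domains called higher, blue points the 39 called lower at an adjusted p under 0.05 in limma, and grey points the rest. The 10 widest domains lie between -0.39 and 0.06 and are all grey.

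The share of peaks called was larger in wider classes up to the very broad class. It was 0.739% of tested autosomal peaks below the 25th percentile of width, 1.95% between the 25th and 75th percentiles, 6.39% in next-broad peaks, 13.1% from 5000 to under 6000 bases, 12.7% from 6000 to under 7500, 8.08% from 7500 to under 10000 and 13.6% from 10000 up. The precision moved with width too. The median standard error of the log2 difference was 0.33 below the 25th percentile, 0.14 between the 25th and 75th, 0.11 in next-broad peaks and 0.11 in very broad domains. The part of precision in the higher share was not tested. Within the very broad class, the median level per kilobase in controls was 34.1 for the 20 higher domains, 50.3 for the 39 lower ones and 54.7 for the 432 others. Control values enter the log2 difference that sorts these groups. Part of this order is therefore set by the sorting, and the levels are a description only.

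**Figure D3:**
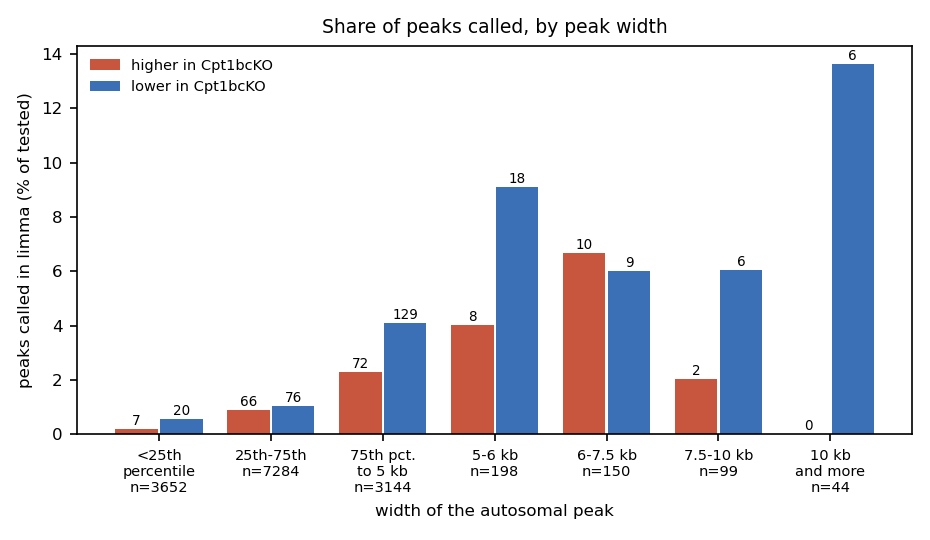
Percent of tested autosomal peaks called higher (red) or lower (blue) in Cpt1bcKO CMs at an adjusted p under 0.05 in limma, by width of the peak. Numbers above bars count the called peaks, n is the number tested, and no domain of 10 kb or more was called higher.

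Calls were also counted by kind of start. Over all 491 very broad domains, 20 (4.07%) were higher and 39 (7.94%) lower, together 59. Of all tested peaks, 1.11% were higher and 1.82% lower, together 2.93%. The smallest classes below hold 22 and 14 domains. Differences between the classes were not tested. Next-broad peaks were not split in this way, so the shares describe the very broad domains only. Of 373 domains that contained the outermost start of a protein-coding gene, 10 were higher and 23 lower, which is 8.85%. Of 82 domains that contained only an internal start of such a gene, 5 were higher and 12 lower (20.7%). Of 22 domains without any annotated start, 5 were higher and 2 lower (31.8%). Of 14 with a noncoding start alone, 0 were higher and 2 lower (14.3%), near the share of all very broad domains. The internal group had a lower median CpG ratio (0.31) than the outermost group (0.46) and a lower level per kilobase in controls (46.4 against 54.7). In the deposited assignment, 22 of the 86 domains without a gene name were called (25.6%), against 37 of the 405 with one (9.14%).

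The 20 higher domains had a median log2 difference of 0.60. Fatty acid genes were the largest listed group among the higher domains. Of 54 listed genes of fatty acid metabolism, 48 had a tested peak, and 14 very broad domains covered their starts. In these 14, 3 (21.4%) rose and 0 fell, where 4.07% of all very broad domains and 1.11% of all tested peaks were higher. A positive log2 difference was seen in 11 (78.6%), against 40.7% of all very broad domains, with a median of 0.28 beside 0.01 over all tested peaks. Rises were not confined to very broad domains. Among the 39 other tested peaks assigned to listed fatty acid genes, 7 were higher and 2 lower, against 1.11% and 1.82% of all tested peaks. The 3 very broad domains that rose were at Cd36, at Cpt1b, which is the targeted gene, and at Pdk4. Cd36 had 2 of the 14 domains, of which only the downstream one rose. The Pdk4 call depended on single libraries, as given below. The positive but uncalled ones included Hadhb (0.33, adjusted p = 0.126 in limma), Acaa2 (0.31, adjusted p = 0.176), Acsl1 (0.28, adjusted p = 0.164) and Hadh (0.27, adjusted p = 0.162), which encode enzymes of fatty acid activation and β-oxidation. Lpl, the gene of lipoprotein lipase, was at -0.22 with an adjusted p of 0.451 in limma.

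Pdk4 encodes a kinase that inactivates pyruvate dehydrogenase and so restrains glucose oxidation. Its domain (chr6:5489968-5496359) held 239, 300 and 305 normalized counts in CtrlCre and 499, 548 and 314 in Cpt1bcKO libraries. Cpt1bcKO replicate 3 lay just above the highest control and the other 2 well above it. The log2 difference was 0.66 (SE 0.15, adjusted p = 0.0121 in limma), and the call was lost without CtrlCre replicate 1 (adjusted p = 0.125), Cpt1bcKO replicate 1 (adjusted p = 0.116) or Cpt1bcKO replicate 2 (adjusted p = 0.110).

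Cd36 encodes a transporter of long-chain fatty acids at the cell membrane and carried a pair of very broad domains 45813 bases apart. The downstream domain (chr5:17829029-17837057), to which no gene is assigned in the deposited table, lay over an internal start whose promoter is printed above. It held 110, 126 and 166 normalized counts in CtrlCre and 209, 299 and 213 in Cpt1bcKO libraries, a log2 difference of 0.84 (SE 0.14, adjusted p = 0.00103 in limma). The upstream domain (chr5:17882870-17889200), assigned to Cd36, held 448, 465 and 498 against 485, 614 and 431, a log2 difference of 0.10 (SE 0.11, adjusted p = 0.794). The log2 ratio of the downstream to the upstream domain was -1.83 ± 0.23 in CtrlCre and -1.09 ± 0.11 in Cpt1bcKO libraries (SD, n = 3, exact permutation p = 0.1, the smallest possible). This pair and the pairs at Cpt1b and Fhl2 below were compared after their values were seen.

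The targeted gene also carried a pair. The 5′ domain (chr15:89421995-89431151) covered exons 1 to 9 of transcript Cpt1b-201 and also starts of Chkb, Gm44502 and C730034F03Rik. It held 428, 407 and 436 normalized counts in CtrlCre and 572, 689 and 568 in Cpt1bcKO libraries, a log2 difference of 0.52 (SE 0.10, adjusted p = 0.00357 in limma). The 3′ domain (chr15:89415304-89420536), assigned to Syce3 in the deposited table, covered exons 12 to 19 of the same transcript and contained no annotated start. It held 32, 53 and 47 against 90, 117 and 82, a log2 difference of 1.13 (SE 0.20, adjusted p = 0.00175). Exons 10 and 11 of Cpt1b-201 lay in the 1459 bases between the domains. The positions of the loxP sites were not used here, and introns 9 and 11 reach into the domains, so a deleted segment may overlap either of them. The log2 ratio of the 3′ to the 5′ domain was -3.30 ± 0.41 in CtrlCre and -2.67 ± 0.12 in Cpt1bcKO libraries (SD, n = 3, exact permutation p = 0.1, the smallest possible).

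Of 3 very broad domains at 22 listed cell cycle genes, 2 rose, where 4.07% of all very broad domains and 1.11% of all tested peaks were higher. The third, at Ccnd2, was at 0.04 with an adjusted p of 0.934 in limma. Among the 21 other tested peaks assigned to these genes, 0 were higher and 0 lower. Ccnd1 encodes cyclin D1, which drives entry into the cell cycle, and its domain (chr7:144937697-144943718) held 231, 205 and 198 normalized counts in CtrlCre and 305, 298 and 297 in Cpt1bcKO libraries. The log2 difference was 0.51 (SE 0.10, adjusted p = 0.00320 in limma). Myc encodes a transcription factor of growth and proliferation. Its domain (chr15:61983508-61989242) held 385, 358 and 356 against 466, 544 and 530, a log2 difference of 0.48 (SE 0.10, adjusted p = 0.00477). At both genes every Cpt1bcKO library lay above every control.

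Further higher domains included sites outside the outermost promoters. An intronic domain of Fnip2 (chr3:79526822-79532413), a gene for a folliculin-interacting protein, contained no annotated start and held 232, 230 and 226 normalized counts in CtrlCre and 422, 488 and 423 in Cpt1bcKO libraries. Its log2 difference was 0.95 (SE 0.10, adjusted p = 1.28e-06 in limma). A domain outside any annotated gene on chromosome 6 (chr6:51329390-51335597) held 223, 216 and 177 against 364, 372 and 360. The log2 difference there was 0.84 (SE 0.10, adjusted p = 1.64e-05). Others among the 10 with the smallest p were Bri3 (0.70), Fam198b (0.89), here over the outermost start, and a domain assigned to Agpat2 (0.69), the gene of an acyltransferase of phosphatidic acid synthesis, whose start lay outside the domain.

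**Figure D4:**
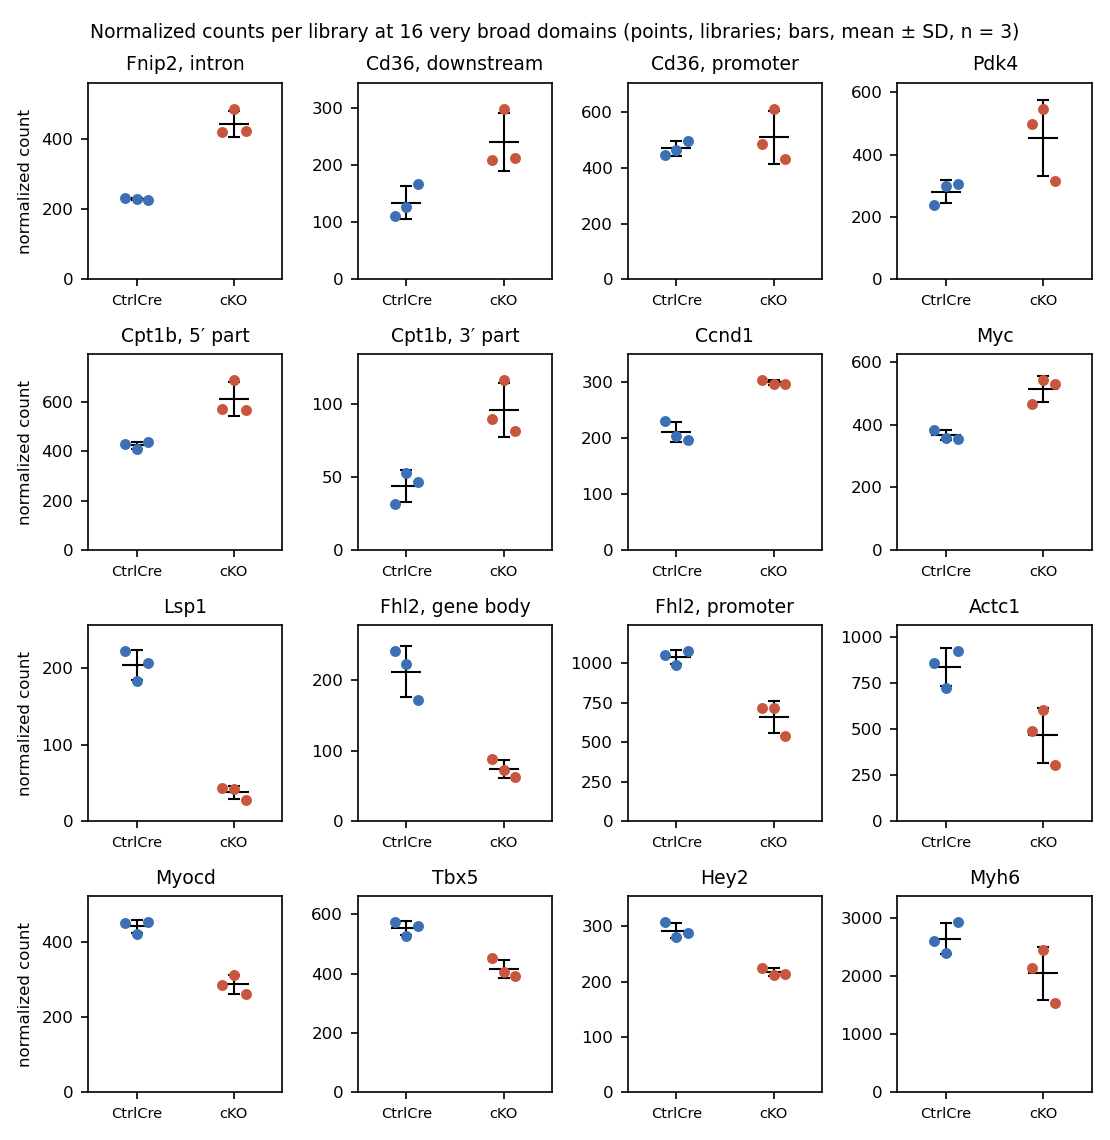
Normalized counts in each library at 16 very broad domains, with CtrlCre in blue and Cpt1bcKO (cKO) in red, and bars for the mean ± SD of 3 libraries on axes that start at 0. The genotypes are separate at all domains shown except the Cd36 promoter and Myh6.

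The 39 lower domains had log2 differences between -0.38 and -2.42, and the groups did not overlap at any of them. The largest was inside Lsp1 (chr7:142474141-142479561), a gene for an actin-binding protein best known from leukocytes. This domain lay over an internal start and to 85.6% in introns. Its normalized counts were 223, 184 and 207 in CtrlCre and 44, 42 and 28 in Cpt1bcKO libraries, a log2 difference of -2.42 (SE 0.17, adjusted p = 1.29e-08 in limma). All 6 immune markers, Ptprc among them, had no assigned peak, and unassigned narrower peaks were not counted. Summed counts of the assigned peaks of all nonmyocyte markers were 301 to 410 in CtrlCre and 152 to 228 in Cpt1bcKO libraries. The part of nonmyocyte cells in the Lsp1 difference was not tested.

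Fhl2, which encodes a LIM-domain protein of heart muscle, carried neighbouring domains 481 bases apart. The promoter domain (chr1:43189729-43199159) held 1054, 990 and 1079 normalized counts in CtrlCre and 719, 720 and 541 in Cpt1bcKO libraries, a log2 difference of -0.67 (SE 0.12, adjusted p = 0.00131 in limma). The domain further into the gene (chr1:43176341-43189248), 12907 bases wide and 99.3% intronic, held 242, 223 and 172 against 88, 73 and 63. Its log2 difference was -1.49 (SE 0.14, adjusted p = 7.09e-07). The log2 ratio of the inner to the promoter domain was -2.31 ± 0.30 in CtrlCre and -3.14 ± 0.14 in Cpt1bcKO libraries (SD, n = 3, exact permutation p = 0.1, the smallest possible).

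Other domains with the smallest p in the lower direction lay at genes of various roles. Gpr22 (chr12:31709142-31714266), the gene of an orphan G protein-coupled receptor, held 365, 260 and 338 normalized counts in CtrlCre and 109, 135 and 70 in Cpt1bcKO libraries, a log2 difference of -1.64 (SE 0.17). An internal domain of Pde4b (chr4:102568608-102574287), the gene of a cyclic AMP phosphodiesterase, held 158, 156 and 104 against 83, 54 and 39, a log2 difference of -1.28 (SE 0.21). No library of one genotype reached the other at either gene. The further ones were Arhgef17 (-1.32), which encodes a guanine nucleotide exchange factor, Slc7a1 (-1.25), a transporter of cationic amino acids, Inpp4b (-1.14), a phosphoinositide phosphatase, Tecr (-0.85), a reductase of fatty acid elongation, and Bik (-0.81), which promotes apoptosis. Their adjusted p-values in limma, with those of Gpr22 and Pde4b, ranged from 1.08e-06 to 0.000716.

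Of 34 listed heart transcription factor genes, 31 had a tested peak, and 18 very broad domains covered their starts, of which 0 rose and 3 (16.7%) fell, where 7.94% of all very broad domains were lower. A negative log2 difference was seen in 13 (72.2%), against 59.3% of all very broad domains and 48.8% of all tested peaks, and the median was -0.07, against -0.04 and 0.01. Among the 17 other tested peaks assigned to these listed genes, 1 was higher and 1 lower, against 1.11% and 1.82% of all tested peaks. The 3 very broad domains that fell were at Myocd, Hey2 and Tbx5. Myocd encodes myocardin, a cofactor of serum response factor, and its domain (chr11:65265736-65271617) held 452, 423 and 454 normalized counts in CtrlCre and 286, 314 and 263 in Cpt1bcKO libraries. The log2 difference was -0.62 (SE 0.10, adjusted p = 0.000364 in limma).

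Tbx5 encodes a T-box factor of the heart, and its domain (chr5:119829479-119840383) held 574, 528 and 559 normalized counts against 451, 407 and 391 in Cpt1bcKO libraries. Its log2 difference was -0.41 (SE 0.10, adjusted p = 0.0167 in limma). Hey2, the gene of a repressor downstream of Notch, held 308, 281 and 288 against 225, 212 and 214 (chr10:30839152-30846271), with a log2 difference of -0.43 (SE 0.09) and an adjusted p of 0.0115. The Tbx5 call was lost without CtrlCre replicate 1 (adjusted p = 0.123), Cpt1bcKO replicate 2 (adjusted p = 0.0514) or Cpt1bcKO replicate 3 (adjusted p = 0.0751). The Hey2 call was lost without CtrlCre replicate 1 (adjusted p = 0.0937), without Cpt1bcKO replicate 3 (adjusted p = 0.0524) and with the GC correction (adjusted p = 0.0653). The wider list of developmental transcription factor families had 19 very broad domains and shares many of them with the heart list, Tbx5 included. Of the 19, 0 rose, 1 (Tbx5, 5.26%) fell and 16 (84.2%) were negative, with a median of -0.09. Over all very broad domains 7.94% were lower and 59.3% negative, and 1.82% of all tested peaks were lower.

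Of 41 listed sarcomere and Z-disc genes, 36 had a tested peak, and 27 very broad domains covered their starts. Here 0 rose and 2 (7.41%) fell, a share near the 7.94% of all very broad domains, and 18 (66.7%) were negative, with a median of -0.14. Actc1 encodes cardiac α-actin, and its domain (chr2:114047622-114058602) held 858, 723 and 924 normalized counts in CtrlCre and 487, 605 and 307 in Cpt1bcKO libraries. The log2 difference was -0.89 (SE 0.16, adjusted p = 0.00179 in limma). Mylk3, the gene of the kinase that phosphorylates cardiac myosin light chain, fell less, by 0.45 on the log2 scale (SE 0.12, adjusted p = 0.0439, chr8:85357623-85365731). That call was lost when CtrlCre replicate 1, CtrlCre replicate 3, Cpt1bcKO replicate 1 or Cpt1bcKO replicate 3 was left out (adjusted p from 0.0780 to 0.257), and the log2 difference was -0.28 without Cpt1bcKO replicate 3. It was also lost with the GC correction (adjusted p = 0.125). Positive but uncalled members included Synpo2l (0.28, adjusted p = 0.349) and Mybpc3 (0.26, adjusted p = 0.299), so the list did not move as 1 block. Among the 15 other tested peaks assigned to listed genes, 1 was higher and 3 lower, against 1.11% and 1.82% of all tested peaks.

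Of 39 listed calcium handling, channel and junction genes, 37 had a tested peak, and 18 very broad domains covered their starts, of which 0 rose and 2 (11.1%) fell, where 7.94% of all very broad domains were lower. Of these 18, 16 (88.9%) were negative, against 59.3% of all very broad domains, with a median of -0.26. Among the 20 other tested peaks assigned to listed genes, 1 was higher and 3 lower, against 1.11% and 1.82% of all tested peaks. Hrc encodes a calcium-binding protein of the sarcoplasmic reticulum, and its domain (chr7:45332429-45341168), which also contains starts of Ppfia3 and Trpm4, held 470, 507 and 435 normalized counts in CtrlCre and 349, 357 and 314 in Cpt1bcKO libraries. The log2 difference was -0.47 (SE 0.10, adjusted p = 0.00693 in limma). Without CtrlCre replicate 1 it was also -0.47, with an adjusted p of 0.0507. Trdn encodes triadin, which anchors calsequestrin at the calcium release channel. A Trdn domain over an internal start (chr10:33082851-33088714) held 339, 365 and 374 against 215, 327 and 223, a log2 difference of -0.52 (SE 0.12, adjusted p = 0.0194). With the GC correction it was -0.16 with an adjusted p of 0.546, and the adjusted p lay between 0.0591 and 0.191 without CtrlCre replicate 1, CtrlCre replicate 3, Cpt1bcKO replicate 1 or Cpt1bcKO replicate 3. A second, wider Trdn domain (chr10:33251263-33258571, 7308 bases) averaged 619 normalized counts in CtrlCre and 568 in Cpt1bcKO libraries. Its log2 difference was -0.13 (SE 0.13, adjusted p = 0.765 in limma). Ryr2, the gene of the calcium release channel itself, was at -0.32 (adjusted p = 0.194) and Atp2a2, the gene of the calcium pump SERCA2, at -0.24 (adjusted p = 0.429).

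**Figure D5:**
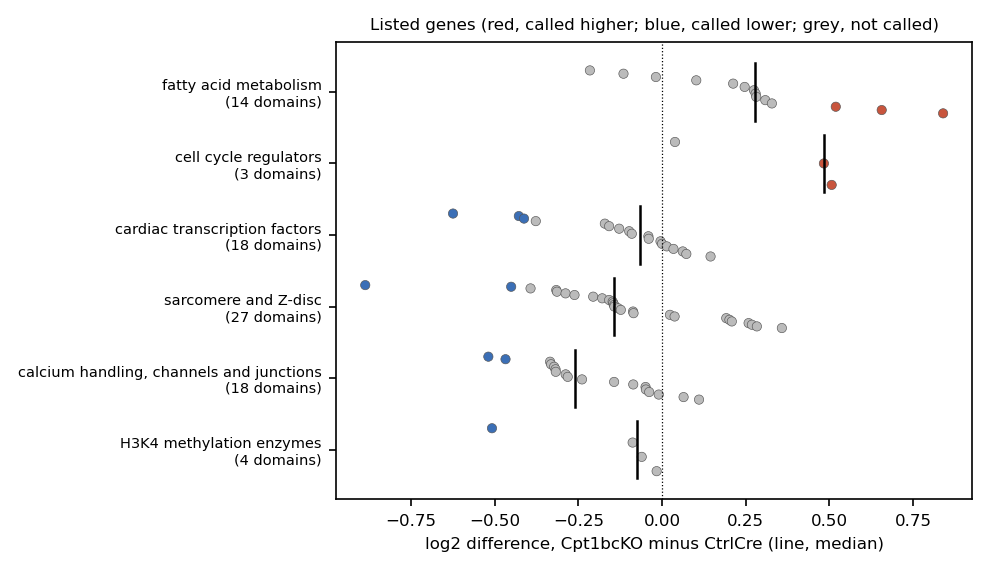
Log2 difference of each very broad domain at listed genes, with 1 row per list. Points are domains, red where called higher and blue where called lower in limma, and vertical lines are medians, which lie at 0.28 for fatty acid metabolism and between -0.07 and -0.26 for the heart transcription factor, sarcomere, calcium and H3K4 enzyme lists.

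Genes of the H3K4 methylation machinery itself had 4 very broad domains among 21 listed genes, at Setd1b, Kmt2e, Kdm5b and Kmt2d. Setd1b encodes a subunit with methyltransferase activity of a SET1 complex, and its domain (chr5:123132184-123144935) also contained the start of Rhof. It held 511, 518 and 577 normalized counts in CtrlCre and 382, 376 and 369 in Cpt1bcKO libraries, a log2 difference of -0.51 (SE 0.09, adjusted p = 0.00225 in limma). Kdm5b, the gene of an H3K4 demethylase, was at -0.02 with an adjusted p of 0.979. Of the 4 H3K4 enzyme domains, 0 were thus higher and 1 lower. Of 6 very broad domains at ribosomal protein and proteasome genes, 0 were called in either direction, with a median of 0.01. Over all very broad domains 4.07% were higher and 7.94% lower, and over all tested peaks 1.11% and 1.82%. Lists of 4 and 6 domains are too small to be told apart from these shares, so no contrast is drawn.

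MicroRNA genes were also among the members. In vM21, 28 hairpins annotated as microRNAs lay inside 21 very broad domains, of which 0 were higher and 2 (9.52%) lower, a share near the 7.94% of all very broad domains. The domain with Mir143 (chr18:61647964-61653388), a microRNA of smooth muscle and heart, fell by 0.58 on the log2 scale (SE 0.12, adjusted p = 0.00758 in limma), from 282, 295 and 241 to 209, 196 and 147 normalized counts, and its call was lost without CtrlCre replicate 1 or Cpt1bcKO replicate 3. Of 5 mural markers, which are genes of smooth muscle and pericytes, 3 had assigned peaks. Their summed normalized counts ranged from 140 to 217 in CtrlCre and from 32 to 80 in Cpt1bcKO libraries. The part of mural cells in the Mir143 difference was not tested. The domain with Mir1895 was that of Cxxc4, and its call was lost without CtrlCre replicate 2 or Cpt1bcKO replicate 2 and with the GC correction. The domains with Mir208b, Mir1a-1, Mir1a-2 and Mir133a-1, microRNAs of heart muscle, had log2 differences between -0.39 and -0.07, and none passed.

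Among the 59 called domains, 27 kept their call in each of the 6 fits that left out 1 library, and all 59 kept their direction there. These 27 included Fnip2, Cd36, both Cpt1b domains, Ccnd1 and Myc in the higher direction. In the lower direction they included Lsp1, both Fhl2 domains, Gpr22, Myocd, Actc1 and Setd1b.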

How the data were processed

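H3K4me3 was measured in 6 libraries of sorted CM nuclei. The authors trimmed reads with Trimmomatic 0.39, aligned them with STAR 2.6.1d, removed duplicates with Picard 2.21.7, called peaks per library against input (MUSIC, false discovery rate 0.2) and merged them, so a width describes the union of all libraries. The deposited value per library is a score, the count in a peak divided by a DESeq2 (version 1.26.0) size factor and rounded by the authors, called normalized count here. The authors also deposited the mean signal of each genotype and the fraction of a peak in the gene body. The deposited fold changes and p-values of the authors' own comparison were not used. Size factors hide a change shared by all peaks.

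Whole counts were recovered from the rounded values and unrounded genotype means (1 solution at 15848 of 15848 peaks) and used for depth, counting errors, which cover counting error only, and limma-voom. A floor of 3 counts equals 1.95 to 6.97 normalized counts. Differences were tested with limma 3.58.1 in R 4.3.3 (genotype alone, trended eBayes, two-sided) on log2(value + 1), which understates changes of low peaks, on 15039 peaks whose mean reached 10, with Benjamini–Hochberg adjustment over all of them. The fit was checked on simulated data. Library-level values were compared with exact permutation tests in scipy 1.17.1. Positions come from the deposited table and starts from GENCODE vM21 (GRCm38.p6, the same chromosome lengths). Named domains are the 10 widest, the 10 with the smallest p per direction among called domains without overlap, the called domains of listed genes, the 5 highest per kilobase and those at the width threshold. Others were chosen after their values were seen. The members and lists were chosen with earlier results of these data known. Some domains that the rule names are not reported here.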

Additional observations from a re-analysis of the deposited data

How the results depend on the processing

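The counts of 20 higher and 39 lower domains moved by over 1.5 times with the GC correction (31 higher, in place of 20), with the replicate block together with the GC correction (24 lower), with a width of 4000 bases or more (33 higher and 70 lower of 901 domains) and with a width of 7500 bases or more (2 higher and 12 lower of 143). Leaving out 1 replicate at a time gave 14 to 21 higher and 18 to 42 lower domains, the lowest counts of lower domains being those without Cpt1bcKO replicate 3 and CtrlCre replicate 1. Quantile normalization, equal total signal, no filter, a mean of at least 50, a pseudocount of 5, all chromosomes and limma-voom kept both counts within 1.5 times. The share of lower calls was 66.1%, and 46.6% with the GC correction, 53.3% with block and GC correction, and 50.0% without Cpt1bcKO replicate 3.

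Replicate numbers are shared between genotypes, but the labels do not say that they mark a shared day or animal. Y-chromosome signal was seen in replicate 3 of both genotypes and in no other library, so this number goes with sex in both. Deviations of same-numbered libraries had correlations of 0.08, -0.08 and 0.11, and 3 of 6 libraries correlated best with their own number. The replicate block gave 16 higher and 30 lower domains (4 lower among those of at least 10 kb), placed Tbx5 at an adjusted p of 0.0543 and Mylk3 at 0.0908, and left the differences in total signal at -0.05 with an exact sign-flip p of 0.75 (3 pairs cannot go below 0.25). The median log2 difference stayed between -0.07 and -0.01 in all settings.

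Of 602 values of named domains under the alternatives, 567 kept direction and side of the threshold, 23 no longer passed and 12 changed sign. Those that changed sign were all close to 0 and uncalled, and the cause was not tested. With quantile normalization Gata4 was at 0.00068 and Meis2 at 0.0064, and with the GC correction Ttn was at 0.0538, Meis2 at 0.0124 and the Malat1 domain at 0.0016. Leaving out 1 replicate at a time changed the sign at Malat1 (-0.281 to 0.0395), Gata4 (-0.150 to 0.0537), 2010111I01Rik (-0.0740 to 0.167) and Meis2 (-0.0591 to 0.0866). The shallowest library, CtrlCre replicate 2, sets the largest counting error.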

Other observations

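The X chromosome, left out by the rule, held 14 peaks of at least 5000 bases, of which 1 was higher and 3 were lower in Cpt1bcKO CMs at an adjusted p under 0.05 in limma. Pfkfb1, which encodes an enzyme that sets the level of fructose 2,6-bisphosphate, had the widest of them (chrX:150587567-150599603, 12036 bases). It held 153, 170 and 180 normalized counts in CtrlCre and 131, 101 and 99 in Cpt1bcKO libraries, a log2 difference of -0.61 (SE 0.13, adjusted p = 0.00715 in limma). Fgf13, a gene for an intracellular factor that modulates sodium channels, held 80, 142 and 53 against 35, 28 and 14 (chrX:59177362-59182465), a log2 difference of -1.77 (SE 0.32, adjusted p = 0.00162). In both genotypes the Fgf13 value was lowest in replicate 3, the replicate with Y-chromosome signal, and the genotypes did not overlap.

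Among the domains that share a gene, those of Clip1 lay on both sides of 0. An intronic domain of Clip1, the gene of a microtubule plus-end protein, held 123, 112 and 135 normalized counts in CtrlCre and 161, 193 and 242 in Cpt1bcKO libraries, a log2 difference of 0.67 (SE 0.13, adjusted p = 0.00413 in limma), and the call was lost without Cpt1bcKO replicate 3. A second Clip1 domain nearby was at -0.49 (SE 0.20, adjusted p = 0.283). The difference between these domains was not tested, and the gene was picked after its values were seen.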
